A study of Mus musculus with 24 samples.

Results

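The 10 genes followed belong to the acid-base machinery of intercalated cells: the V-ATPase subunit genes Atp6v1b1, Atp6v0d2, Atp6v1g3 and Atp6v0a4, the anion exchanger genes Slc4a1, Slc26a4 and Slc4a9, the transcription factor gene Foxi1, the carbonic anhydrase gene Car2 and the ammonia channel gene Rhbg. They were chosen by name, with earlier results of these data known. A probe was assigned to a gene when its accession on the array mapped to that gene. All 10 were measured, among 27985 genes tested in all, and each stood well above background on all 24 arrays. Intercalated cells are the acid-base cells of the connecting tubule and collecting duct, where they lie between the principal cells that reabsorb water and sodium. Type A cells pump acid into the urine with an apical V-ATPase and return bicarbonate to the blood through the chloride-bicarbonate exchanger AE1. Type B cells do the reverse and secrete bicarbonate through pendrin, and obstructive disease of the kidney is known for impaired urinary acidification.

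The study measured RNA of whole kidneys from male mice of the megabladder (mgb) line, labelled young adult and placed by the methods in the fourth or the fifth week of life. In mgb-/- mice the bladder lacks normal smooth muscle and the kidneys dilate without a physical blockage. The kidneys were 6 mgb+/+ controls and 18 mgb-/- kidneys, which ultrasound had graded as 7 with mild, 5 with moderate and 6 with severe hydronephrosis by how much parenchyma was left. Each kidney was hybridized to its own array. It is not stated whether 2 of the kidneys came from 1 mouse. Each kidney was taken as a separate sample, and p-values measure the spread between these kidneys. Because the mutation is present in every cell and the tissue is the whole kidney, fewer intercalated cells and less RNA per cell cannot be told apart in any value.

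Levels are given as log2 of the array's processed signal after subtraction of that array's 75th percentile, so that 0 is the 75th percentile and a difference of 1 is 2-fold. Levels of different genes come from different probes and were not set against each other. The threshold was an adjusted p under 0.05 from limma, with Benjamini-Hochberg adjustment over all genes. Between 55.6% and 70.8% of probes stood well above background on an array, and no spot was saturated. The kidney labelled severe replicate 5 stood apart: it had the lowest level of all 24 kidneys of Atp6v1b1, Atp6v1g3, Atp6v0a4, Slc26a4, Slc4a9, Car2 and Rhbg, and its level of Lrp2, the endocytic receptor of the proximal tubule, was 5.46 against 7.10 to 7.50 in the controls. The differences of severe from control kidneys are therefore also given without it.

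No member passed the test in any of the 7 comparisons made. All 10 nevertheless averaged higher in mild than in control kidneys, and all 10 averaged lower in severe than in mild kidneys. Slc26a4 and Slc4a9, both genes of type B cells, differed most between mild and control kidneys. They were the 2 members of 10 with every mild kidney above every control kidney, as were 3.0% of all genes. The severe kidneys ranged widely, and for Slc26a4 and Slc4a9 replicates 5 and 6 lay below every control.

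Regulatory sequence was available for 5 of the members in the RefSeq-based promoter table (GRCm38.p6), which spans 250 bases before to 50 bases after the start of each gene. The promoters of Atp6v1b1, a V-ATPase subunit, and of Slc26a4, which had one of the largest differences in mild kidneys, are shown because Foxi1, the forkhead factor known to be required for intercalated cells, is itself a member. Capitals mark the forkhead core TGTTTA, searched on both strands. The Atp6v1b1 window lies at chr6:83742767-83743066 on the + strand, and the Slc26a4 window at chr12:31559935-31560234 on the - strand.
Atp6v1b1: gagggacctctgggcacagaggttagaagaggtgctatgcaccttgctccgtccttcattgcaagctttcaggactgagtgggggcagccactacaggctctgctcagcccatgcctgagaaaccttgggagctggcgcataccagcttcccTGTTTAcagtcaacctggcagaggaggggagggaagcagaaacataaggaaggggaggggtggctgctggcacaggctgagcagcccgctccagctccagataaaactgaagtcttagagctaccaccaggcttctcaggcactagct
Slc26a4: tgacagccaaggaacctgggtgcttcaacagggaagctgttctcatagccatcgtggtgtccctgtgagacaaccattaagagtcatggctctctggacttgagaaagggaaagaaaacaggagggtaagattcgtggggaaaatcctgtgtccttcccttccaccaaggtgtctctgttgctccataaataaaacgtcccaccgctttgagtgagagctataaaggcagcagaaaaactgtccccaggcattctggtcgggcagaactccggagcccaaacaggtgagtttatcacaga
The core was found once in the Atp6v1b1 window, 98 bases before the start, where it also read TGTTTAC, a longer motif that contains the core. It was not found in the windows of Slc26a4, Atp6v1g3, Atp6v0a4 and Foxi1. TGTTTA occurred in 13.4% and TGTTTAC in 3.65% of 32851 mouse promoters of the same length, so 1 window of 5 is a description and not a sign of a site.

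**Figure D1:**
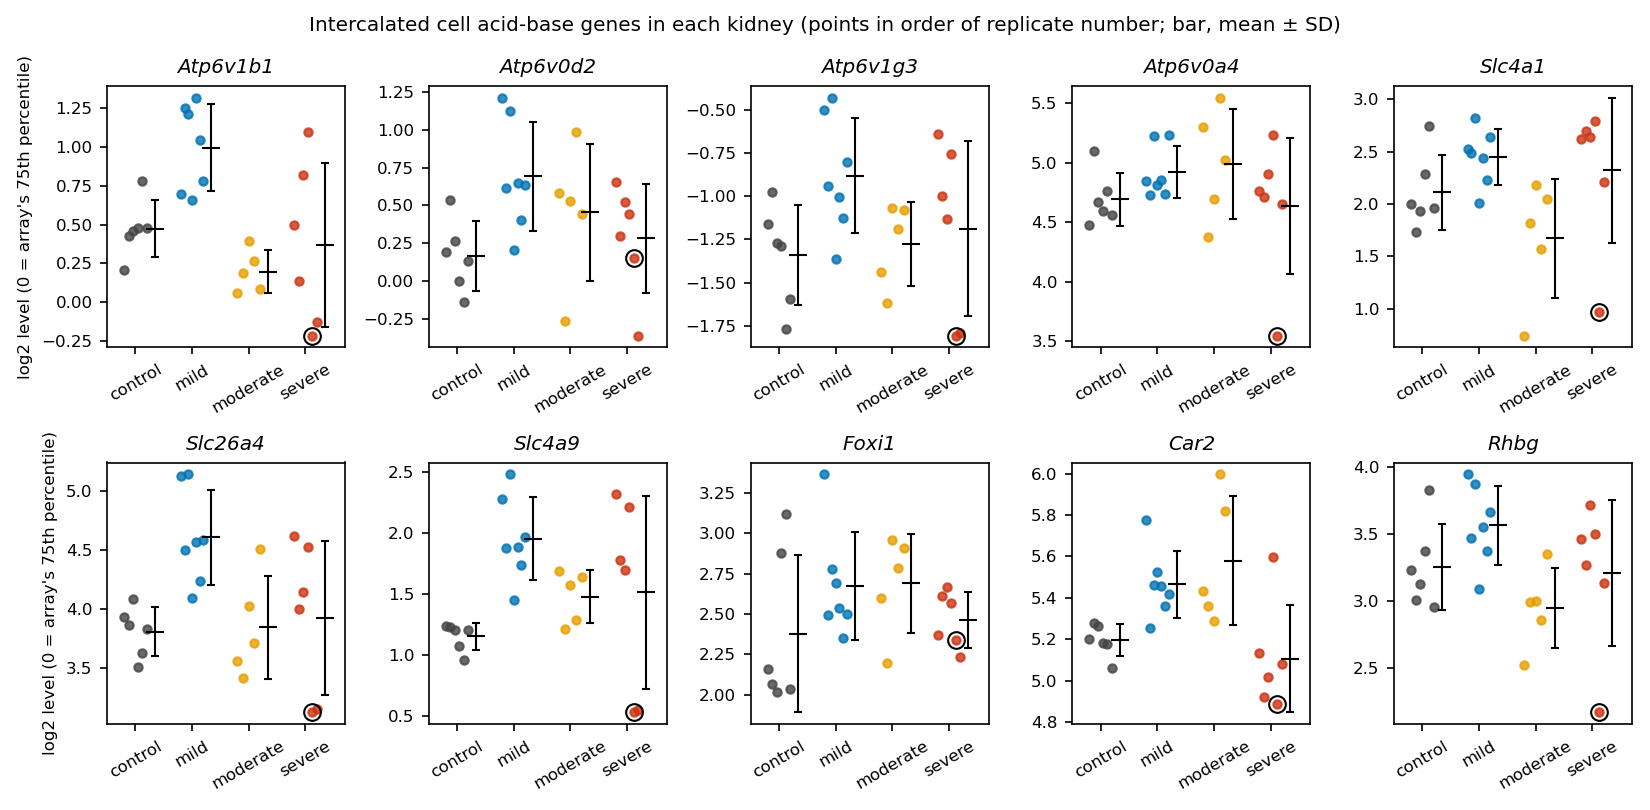
Level of each of the 10 genes in each of the 24 kidneys, as log2 of the processed signal with the array's 75th percentile at 0. Points stand in order of replicate number, bars give the group mean ± SD, and the open circle marks severe replicate 5. In the Slc26a4 and Slc4a9 panels the 7 mild kidneys lie above all 6 controls, while the severe kidneys spread from below the controls to within the mild range.

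The bicarbonate exchangers of type B cells were examined first. Slc26a4 encodes pendrin, the apical chloride-bicarbonate exchanger. Its level was between 3.51 and 4.08 in the 6 controls, with a median of 3.85. The 7 mild kidneys lay between 4.09 and 5.14, with a median of 4.57, and did not overlap the controls. The 5 moderate kidneys were at 3.56, 3.42, 4.02, 3.71 and 4.51. The 6 severe kidneys ran from 3.13 to 4.61, with a median of 4.07, and replicates 5 and 6 lay below every control. Pendrin RNA was thus 1.74-fold as abundant in mild as in control kidneys (log2 difference 0.80, SE 0.24, 95% confidence interval 0.29 to 1.30), with an adjusted p of 0.0547, just short of the threshold. In moderate kidneys the log2 difference from control was 0.036 (SE 0.27) and in severe kidneys 0.12 (SE 0.25), or 0.28 (SE 0.25) without severe replicate 5.

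Slc4a9 encodes AE4, an anion exchanger of the basolateral membrane of type B cells. The controls lay close together, from 0.96 to 1.24, with an SD of 0.11. The mild kidneys lay between 1.45 and 2.48 with a median of 1.88, all above the controls. Moderate kidneys were at 1.69, 1.21, 1.57, 1.28 and 1.64, and 4 of the 5 exceeded every control. Among severe kidneys 4 lay between 1.69 and 2.32, above all controls, and replicates 5 and 6 at 0.53 and 0.55, below all controls. The log2 difference from control was 0.80 in mild (SE 0.25, adjusted p 0.0546), 0.33 in moderate (SE 0.27) and 0.36 in severe kidneys (SE 0.25). Without severe replicate 5 the last became 0.56 (SE 0.23, adjusted p 0.115). Over all 18 mgb-/- kidneys it was 0.52 (SE 0.22, adjusted p 0.113), and 15 of the 18 lay above every control. The other Slc4a9 probe gave 0.51 for the same comparison.

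Both genes passed the threshold under 6 of 12 other settings of the mild comparison, although not the same 6. Severe replicate 5 entered this comparison only through the shared estimate of the spread. Without it the adjusted p of limma was 0.0319 for Slc26a4 and 0.0241 for Slc4a9, the lowest over the 24 omissions of 1 kidney. Slc26a4 passed in 6 of these 24 and Slc4a9 in 5, and their highest adjusted p-values were 0.116 and 0.114. The differences of both genes from control were positive under every one of those 12 settings and after omission of each kidney in turn. Omission of 1 kidney could not turn that sign, because every mild kidney lay above every control.

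Among the type A and ammonia genes the pattern differed from gene to gene. Slc4a1 encodes AE1, the basolateral exchanger of type A cells, and also the band 3 protein of red cells. Control kidneys lay between 1.73 and 2.75 and mild kidneys between 2.01 and 2.82, and these ranges overlapped. The 5 moderate kidneys averaged lower, at 0.74, 1.82, 2.18, 1.57 and 2.05. Of these, 4 lay below the control mean of 2.11 and 2 below every control. Of the 6 severe kidneys 5 lay above the control mean, and replicate 5 was at 0.97. The log2 difference from control was 0.34 in mild (SE 0.26), -0.44 in moderate (SE 0.29) and 0.21 in severe kidneys (SE 0.27), and without severe replicate 5 the last became 0.48 (SE 0.22, adjusted p 0.149). Of 7 red cell markers listed, 3 were measured, and 1 of them passed in mgb-/- against control kidneys, where 13.3% of all genes did. It was Alas2, the first enzyme of haem synthesis in erythroid cells (log2 difference 1.14, SE 0.32, adjusted p 0.0222). The alpha-globin gene Hba-a1 had 0.72 (SE 0.25, adjusted p 0.055) and Epb42, a protein of the red cell membrane, -0.54 (SE 0.44, adjusted p 0.452). The log2 of the summed signal of these 3 markers ran from 6.70 to 8.80 in control, 7.99 to 8.45 in mild, 8.13 to 8.82 in moderate and 7.97 to 9.57 in severe kidneys. Its part in the Slc4a1 values was not tested.

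Rhbg encodes a basolateral ammonia channel of the distal nephron. Its level ran from 2.96 to 3.83 in control, 3.09 to 3.95 in mild, 2.52 to 3.35 in moderate and 2.17 to 3.72 in severe kidneys, and all 4 ranges overlapped. The log2 difference from control was 0.31 in mild (SE 0.21), -0.31 in moderate (SE 0.23) and -0.046 in severe kidneys (SE 0.22), and the last turned to 0.16 (SE 0.18) without severe replicate 5. Rhcg, the apical partner channel, is no member and had 0.44 in mild (SE 0.17, adjusted p 0.13), with 7 of 7 mild kidneys above the control mean.

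Car2 encodes the cytosolic carbonic anhydrase that supplies protons and bicarbonate in intercalated cells and also in the proximal tubule. Control kidneys were close together, from 5.06 to 5.28, with an SD of 0.077. All but 1 of the 7 mild kidneys lay above every control, as did all 5 moderate kidneys, at 5.43, 5.36, 5.29, 6.00 and 5.82. The share of all genes with every moderate kidney above every control was not computed. Of the severe kidneys 5 lay below the control mean, and replicate 4 was above all controls at 5.60. The log2 difference from control was 0.27 in mild (SE 0.12, adjusted p 0.207), 0.39 in moderate (SE 0.13, adjusted p 0.136) and -0.089 in severe kidneys (SE 0.13), or -0.045 without severe replicate 5. Under quantile normalization Car2 passed in the mgb-/-, mild and moderate comparisons with control, and its severe value turned to 0.13.

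Foxi1, the forkhead transcription factor, was the most variable member among controls, with an SD of 0.49 and a range of 2.02 to 3.12. The groups overlapped, with mild kidneys from 2.35 to 3.36, moderate from 2.20 to 2.96 and severe from 2.24 to 2.67. Its log2 difference from control was 0.29 in mild (SE 0.19), 0.31 in moderate (SE 0.21) and 0.086 in severe kidneys (SE 0.20), or 0.11 without severe replicate 5.

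The other members encode subunits of the V-ATPase that are found mainly in intercalated cells and a few other acid-secreting cells. Atp6v1b1 encodes B1, a subunit of the cytosolic V1 sector. Control kidneys lay between 0.21 and 0.78 with a median of 0.47, and mild kidneys between 0.66 and 1.32 with a median of 1.05. The moderate kidneys were at 0.058, 0.18, 0.39, 0.26 and 0.084, so that every mild kidney lay above the control mean and every moderate kidney below it. The severe kidneys ran from -0.22 to 1.10. The log2 difference from control was 0.52 in mild (SE 0.18, adjusted p 0.0865), -0.28 in moderate (SE 0.20) and -0.10 in severe kidneys (SE 0.19), and the last turned to 0.012 (SE 0.18) without severe replicate 5.

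Atp6v0d2, the d2 subunit of the membrane V0 sector, ranged from -0.14 to 0.54 in control and from 0.20 to 1.21 in mild kidneys, with a log2 difference of 0.53 (SE 0.20, adjusted p 0.111). It is also known from osteoclasts and macrophages, of whose 8 listed markers 7 were measured. Their summed signal had a log2 of 7.13 to 7.42 in control, 6.61 to 7.06 in mild, 6.41 to 7.26 in moderate and 6.29 to 7.40 in severe kidneys, so it was lower in every mild kidney than in any control, and its part in the Atp6v0d2 values was not tested. The second Atp6v0d2 probe was dimmer and gave 0.16 where the one used gave 0.33, for mgb-/- against control kidneys. Atp6v1g3, the G3 subunit, ranged from -1.77 to -0.97 in control and from -1.36 to -0.43 in mild kidneys (log2 difference 0.46, SE 0.20, adjusted p 0.173). Atp6v0a4, the a4 subunit, ranged from 4.48 to 5.10 in control and from 4.73 to 5.24 in mild kidneys (log2 difference 0.23, SE 0.21, adjusted p 0.604). In moderate kidneys these 3 genes differed from control by 0.29, 0.063 and 0.30, and in severe kidneys by 0.12, 0.16 and -0.057. Without severe replicate 5 the severe differences were 0.15, 0.28 and 0.16.

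**Figure D2:**
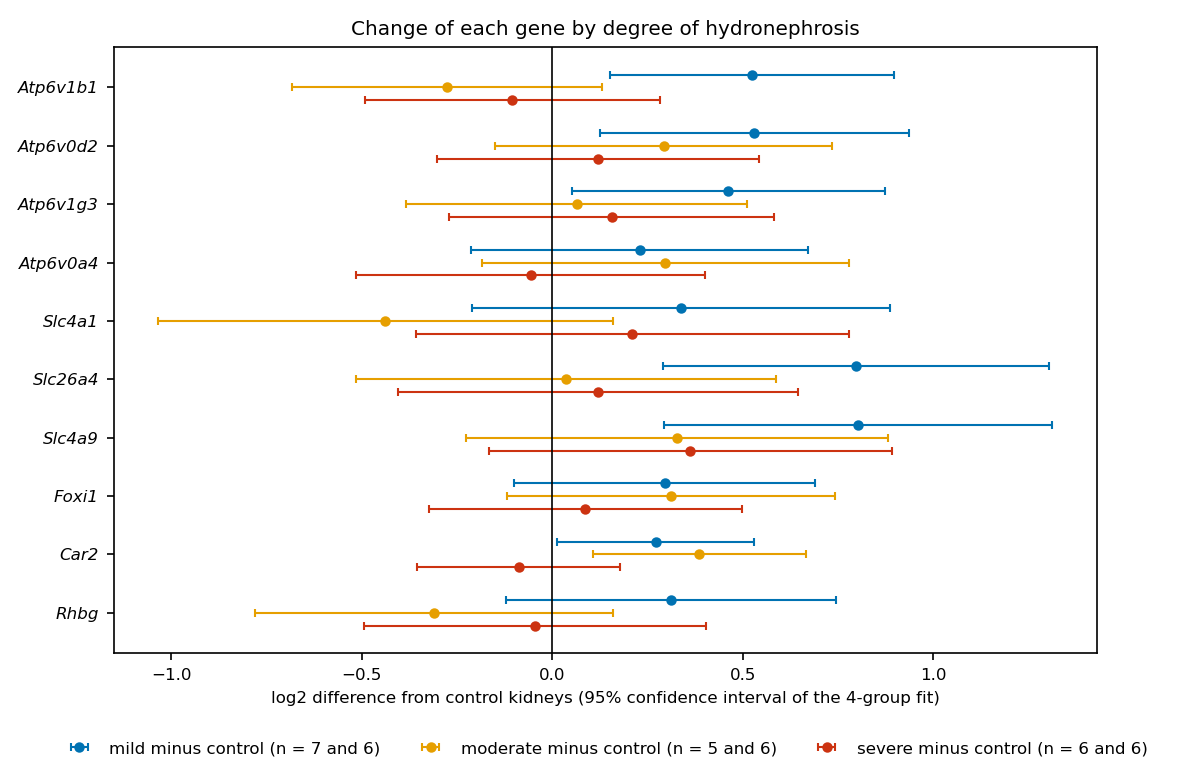
Log2 difference from the 6 control kidneys for each gene in mild, moderate and severe hydronephrosis. Points are the estimates of the limma fit over 4 groups and bars their 95% confidence intervals. All 10 mild estimates lie to the right of 0, and none of the 30 estimates passed the adjusted threshold.

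Across the 10 members, 0 passed the test in mgb-/- against control kidneys by limma, where 13.3% of all genes did, and 1 member had an unadjusted p under 0.05, against 29.0% of all genes. All 10 estimates were positive, with a median of 0.21 against 0.011 for all genes tested, and all 10 confidence intervals lay within a 2-fold change in either direction. The number that were positive fell to 6 when arrays were scaled by their median, a setting that moved the median of all genes to -0.15. Each slide held 2 controls and 6 mgb-/- kidneys. On the 3 slides taken alone Slc4a9 differed from control by 0.58, 0.38 and 0.61 and Slc26a4 by 0.46, 0.30 and 0.32. Atp6v0a4 gave 0.54, -0.36 and 0.27.

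By grade, 0 members passed in mild against control kidneys, where 6.02% of genes were called, but 6 of 10 had an unadjusted p under 0.05 against 21.4% of all genes. These were Slc4a9, Slc26a4, Atp6v1b1, Atp6v0d2, Atp6v1g3 and Car2. The members' levels correlated over the same 24 kidneys, with a median r of 0.517 over their 45 pairs. Counts of members in this and the other comparisons are therefore not counts of independent genes. The 10 estimates ran from 0.23 to 0.80 with a median of 0.40, against 0.011 for all genes. All 10 remained positive under each of 12 other settings and after omission of each kidney in turn, with medians between 0.25 and 0.48. Omission of a moderate or severe kidney cannot change these estimates. Segment markers also lay above control in mild kidneys, in 5 of 6 of the thick ascending limb (median 0.41) and 5 of 6 of the distal convoluted tubule (median 0.40), while those of the proximal tubule were split 4 and 4 (median -0.022). The part of these segments in the members' values was not tested. Between 0 and 7 members passed under the 12 other settings, and 5 passed when only mild and control kidneys were fitted. The 7 came with array quality weights, and calls over all genes were not counted for these 2 settings.

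In moderate against control kidneys 0 members passed where 1.2% of genes did, 1 had an unadjusted p under 0.05 against 18.4% of all genes, and 7 of 10 estimates were positive. In severe against control kidneys 0 members passed where 16.1% of genes did, and the unadjusted count was also 0 against 31.7% of all genes. Of the severe estimates 6 of 10 were positive, 9 of 10 without severe replicate 5 and 2 of 10 with median scaling.

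The difference between grades was also fitted directly. Severe kidneys averaged below mild kidneys in all 10 members, with a median log2 difference of -0.36 and the most negative values in Slc26a4 (-0.68, SE 0.24) and Atp6v1b1 (-0.63, SE 0.18). No member passed where 0.586% of genes did, and 4 had an unadjusted p under 0.05 against 11.1% of all genes. Without severe replicate 5 the median was -0.21 and Slc4a1 turned positive. Markers of other tubule segments had the same sign, with all 6 of the distal convoluted tubule (median -0.65), all 8 of the proximal tubule (median -0.43) and all 6 of the thick ascending limb (median -0.29) lower on average in severe than in mild kidneys. Moderate kidneys were compared with mild ones in the same way, and 0 members passed where 0.0% of genes did. The unadjusted count was 4 of 10 against 6.68% of all genes, and Atp6v1b1 had a log2 difference of -0.80 (SE 0.19, adjusted p 0.499). All 5 moderate kidneys were below every mild kidney for Atp6v1b1 alone of the 10, and for 0.247% of all genes. Severe against moderate kidneys gave 0 members where 0.00715% of genes passed, and 2 had an unadjusted p under 0.05 (10.4% of all genes): Car2 at -0.47 (SE 0.13) and Slc4a1 at 0.65 (SE 0.29).

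The restricted subunits were next set against their widely expressed counterparts on the same arrays. B2, d1, G1 and a1, encoded by Atp6v1b2, Atp6v0d1, Atp6v1g1 and Atp6v0a1, serve the V-ATPase of endosomes and lysosomes in most cells. Over all mgb-/- kidneys Atp6v0d2 differed from control by 0.33 and Atp6v0d1 by -0.46, a difference of change of 0.79 (SE 0.22) that held its direction in 16 of 18 kidneys. Its exact permutation p was 0.0185, or 0.0641 after adjustment over the 4 pairs. The pair Atp6v1g3 and Atp6v1g1 gave 0.46 (SE 0.16, adjusted exact p 0.0641, 23 kidneys with both values). Atp6v1b1 and Atp6v1b2 gave 0.82 (SE 0.29, adjusted exact p 0.167), and Atp6v0a4 and Atp6v0a1 gave 0.20 (SE 0.16, adjusted exact p 0.37).

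In mild kidneys the restricted subunit was higher and the widely expressed one lower than in controls in all 4 pairs. The difference of change was 0.89 for Atp6v1b1 and Atp6v1b2 (SE 0.13), 0.86 for Atp6v0d2 and Atp6v0d1 (SE 0.24), 0.65 for Atp6v1g3 and Atp6v1g1 (SE 0.18) and 0.41 for Atp6v0a4 and Atp6v0a1 (SE 0.13). All 7 mild kidneys lay above the control mean of the within-array difference in each pair. The exact permutation p-values, adjusted over 12 tests of 4 pairs in 3 grades, were 0.014, 0.0233, 0.0233 and 0.0297. These tests by grade were added after the pooled values had been seen. In moderate and severe kidneys none of the 4 pairs passed, with adjusted exact p-values from 0.108 to 0.625. The severe differences had large errors, such as 1.28 for Atp6v1b1 and Atp6v1b2 with an SE of 0.81. In mild kidneys the G3 pair missed the threshold under quantile normalization, normexp and in the authors' table, at adjusted exact p-values of 0.0699, 0.0524 and 0.0612. The d2 and G3 pairs missed it without control replicate 5 or 6, and the a4 pair without any of control replicates 1, 4, 5 and 6 or mild replicates 1, 3, 5 and 7, at adjusted exact p-values of up to 0.0758. The B1 pair passed in each of these.

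**Figure D3:**
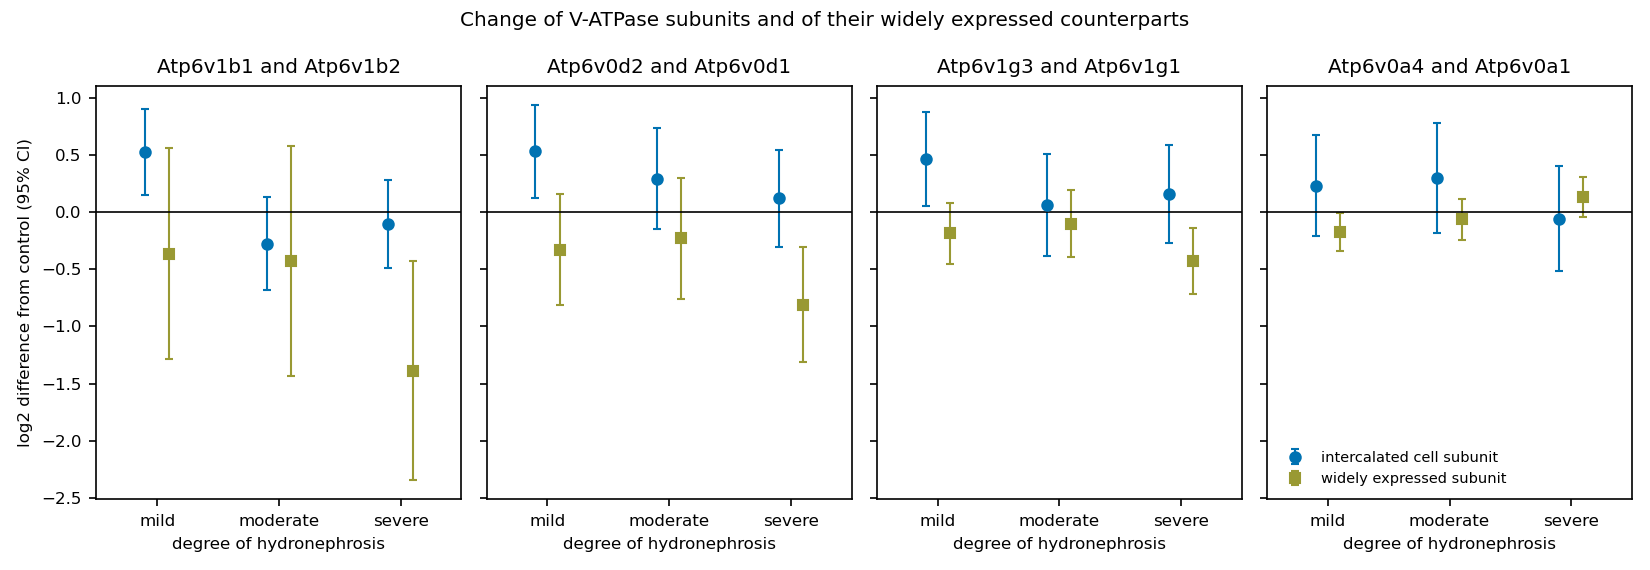
Log2 difference from control of the 4 intercalated cell V-ATPase subunits (circles) and of their widely expressed counterparts (squares) in mild, moderate and severe kidneys. Points are limma estimates and bars 95% confidence intervals. In mild kidneys each circle lies above 0 and each square below it.

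Other subunits and other intercalated cell genes gave the setting of these values. Of 20 V-ATPase genes listed as widely expressed, 2 passed in mgb-/- against control kidneys, both lower, where 8.0% of all genes were: Atp6v0e2 by -0.75 (SE 0.14, adjusted p 0.00282) and Atp6v0a2 by -0.42 (SE 0.11, adjusted p 0.0187). The median of the 20 was -0.24, and 18 were negative. In severe against control kidneys 8 of the 20 passed, all lower, where 9.55% of all genes were lower, among them Atp6v1b2 at -1.39 (SE 0.46, adjusted p 0.0443) and Atp6v0d1 at -0.81 (SE 0.24, adjusted p 0.0282). That count fell to 3 under quantile normalization, 3 without severe replicate 5 and 2 without severe replicate 1 or 2, and under quantile normalization Atp6v0a1 was called higher. Atp6v1c2, a C2 isoform of epithelia that stands on the same list, was one of the 2 positive genes in mgb-/- against control kidneys, at 0.23 (SE 0.20), and differed by 0.59 in mild kidneys (SE 0.20, adjusted p 0.0763).

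Among 24 further genes of intercalated cells, 4 passed with a higher level in mgb-/- kidneys, as did 5.34% of all genes, and none passed with a lower one. Among them were Kcnma1, the BK potassium channel, at 1.47 (SE 0.43), Adgrf5, an adhesion receptor, at 0.51 (SE 0.15) and Jag1, a Notch ligand, at 0.42 (SE 0.13). The median of the 24 was 0.15, with 17 positive and 7 negative. In mild against control kidneys the median of the 24 was 0.37, with 20 positive and 4 negative, beside a median of 0.40 for the members. Of the 24, 3 were called higher and 2 lower there, where 6.02% of all genes were called. The 2 were Atp12a, a proton-potassium pump, at -0.92 (SE 0.25, adjusted p 0.0286) and Il18, a cytokine, at -0.83 (SE 0.25, adjusted p 0.0483), both named after their values were seen. In severe against control kidneys 2 were called higher and 1 lower, where 16.1% of all genes were called, and the lower one, named in the same way, was the anion transporter Slc26a11 at -0.41 (SE 0.10, adjusted p 0.0117). The count of 4 in mgb-/- kidneys was between 0 and 2 when any 1 control kidney was left out, and 1 with median scaling or the replicate block.

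Acid-base transporters outside intercalated cells moved in both directions. Of 17 measured, 6 were positive and 11 negative in mgb-/- against control kidneys (median -0.048), and 4 passed, where 13.3% of all genes did. Slc4a7, a sodium-bicarbonate cotransporter, was higher at 0.58 (SE 0.13, adjusted p 0.00818), as was the membrane-bound carbonic anhydrase Car15 at 0.66 (SE 0.15, adjusted p 0.0083). Car4 and Car12, also membrane-bound carbonic anhydrases, were lower at -0.74 (SE 0.21, adjusted p 0.0236) and -0.81 (SE 0.24, adjusted p 0.0261). Principal cell markers share the collecting duct with the members, and 1 of 9 measured passed as higher in mgb-/- kidneys, where 5.34% of all genes did. It was Aqp2, the vasopressin-regulated water channel, at 0.91 (SE 0.25, adjusted p 0.0194), and of the 9 estimates 6 were positive and 3 negative. The log2 of the summed signal of these 9 ran from 7.04 to 7.43 in control, 7.44 to 8.09 in mild, 6.72 to 7.88 in moderate and 7.16 to 8.18 in severe kidneys. It was higher in all mild kidneys than in any control, as with Slc26a4 and Slc4a9, and its part in their values was not tested.

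Across kidneys the members tended to vary together. Over all 45 pairs of members the correlation over 24 kidneys had a median of 0.517, and 44 of the 45 were positive. These kidneys share the group differences and each array's scaling. With the group means subtracted the median was 0.486 and all 45 were positive. The highest pair was Slc26a4 and Slc4a9 over all kidneys, and Slc4a1 and Rhbg at 0.906 after subtraction.

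Of the 4 pairs examined with a test, Slc26a4 and Slc4a9 had a Pearson r of 0.906 and a Spearman rho of 0.885, each with a permutation p of 1e-05, the smallest that 100000 permutations can give (4e-05 adjusted over the 4 pairs). Without the 2 kidneys farthest from the median r was 0.877. Slc4a1 and Slc26a4, the exchangers of the opposite cell types, had r of 0.614 and rho of 0.617 (adjusted permutation p 0.00312 for each), and r was 0.522 without moderate replicate 1 and severe replicate 5. Slc4a1 and Atp6v0d2 had r of 0.157 and rho of 0.231 (adjusted permutation p 0.461 and 0.364). Foxi1 and Atp6v1b1 had r of 0.206 and rho of 0.176 (adjusted permutation p 0.443 and 0.41). Without the 2 farthest kidneys their r was 0.219 and 0.158.

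**Figure D4:**
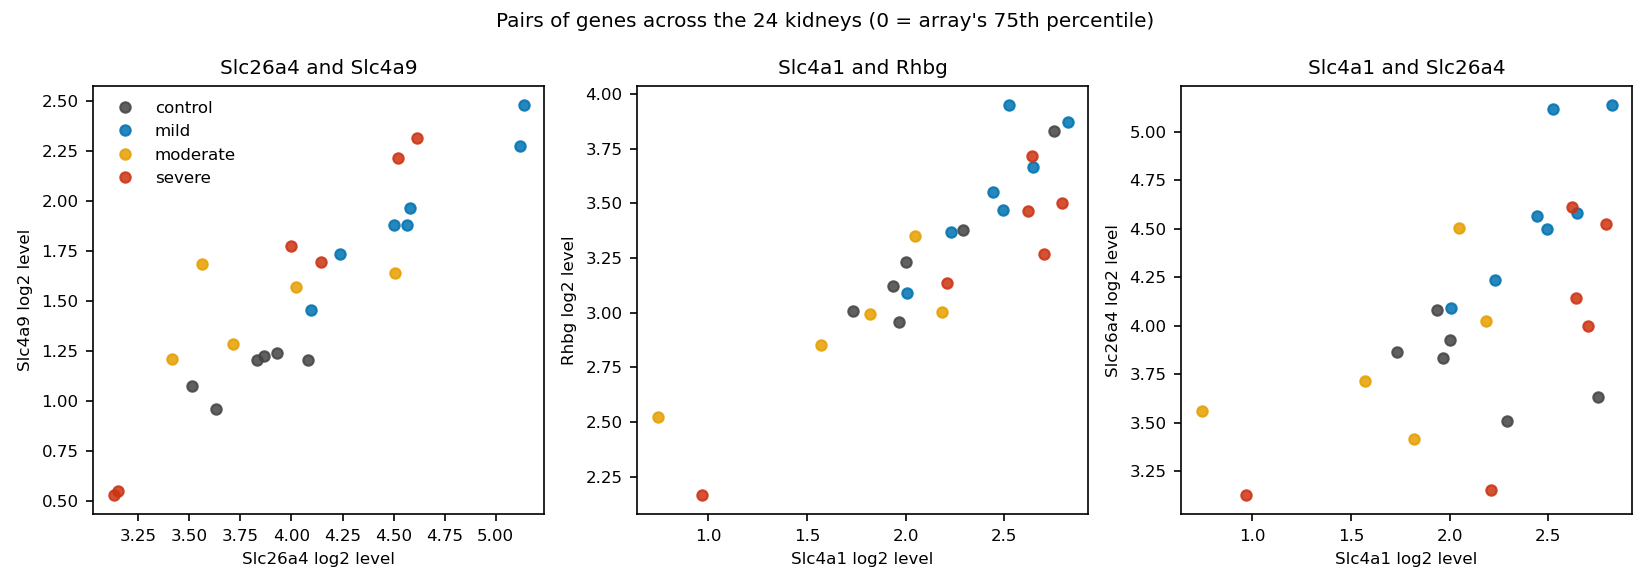
Levels of 3 pairs of genes in the 24 kidneys, coloured by group, each axis the log2 level with the array's 75th percentile at 0. Slc26a4 and Slc4a9 lie along a line (r = 0.906) with mild kidneys at the upper end, while Slc4a1 and Slc26a4 are more scattered (r = 0.614).

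The mean of the 10 members, each scaled to its own mean and SD over the 24 kidneys, lay between -0.73 and -0.10 in control, -0.053 and 1.38 in mild, -0.89 and 0.35 in moderate and -1.81 and 0.83 in severe kidneys. Every mild kidney was thus above every control kidney on this profile, with the lowest mild value at -0.053 and the highest control value at -0.10. The profile sums up the values given above gene by gene. How many other sets of 10 genes split these groups likewise was not counted. The severe SD of the profile was 1.01, well above the control SD of 0.215. Among 27650 genes with a value on every array, the 5 whose levels correlated most with it were Atp6v1c2 (r = 0.948), Me3, a mitochondrial malic enzyme (r = 0.925), Sfxn2, a mitochondrial carrier (r = 0.921), Tmem117 (r = 0.917) and Stard4, a cholesterol transfer protein (r = 0.911). With group means subtracted they were Atp6v1c2 (r = 0.942), Cpeb4, an RNA-binding protein (r = 0.927), Pls1, an actin-bundling protein (r = 0.912), Me3 (r = 0.911) and Rhcg (r = 0.905). These correlations describe 24 kidneys that share the arrays of the members, and carry no test.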

How the data were processed

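Total RNA of each whole kidney had been labelled with Cy3 and hybridized to an Agilent SurePrint G3 Mouse 8x60K array. The authors deposited the output of Agilent Feature Extraction 10.10, whose processed signal is an intensity after background subtraction within the array, and a table of whole-number intensities normalized between arrays by a method not given in the sources used here. That table tracked the uncorrected median signal. No log-scale or fold values of the authors were used.

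From the log2 of the processed signal, the 75th percentile over the probes of the same array was subtracted. Spots marked as outliers were left out. A probe entered if 5 or more arrays had it well above background (38866 of 55681 probes), and the probe with the highest mean was used for each of 27985 genes. RefSeq accessions named 26762 probes, while 28919 kept their accession. The summed signal of a list is the log2 of the sum of its genes' unlogged values.

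Groups came from the labels. limma 3.58.1 in R 4.3.3 was fitted once with mgb-/- and control kidneys as 2 groups and once with the control and the 3 grades as 4 groups, with Benjamini-Hochberg adjustment over all genes. Exact permutation tests were two-sided over all assignments, and correlations used 100000 permutations, two-sided. The limma fit of mgb-/- against control kidneys was tested on simulated data, with independent normal values for each gene and kidney. The number of arrays limits the precision. Python 3.11.15 and matplotlib 3.10.9 drew the figures.

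Named genes were all members, up to 4 genes of each companion or marker list with the smallest unadjusted p in mgb-/- against control kidneys, counterparts of the members, and the 5 genes most like the members' mean profile. The text gives only those of these genes that bear on the members. A gene that the rule names is not reported here. The members and lists were chosen with earlier results of these data known. Alternatives were quantile normalization, median scaling, normexp with an offset of 50, the authors' table, all probes kept, only probes well above background on all 24 arrays kept, averaging of a gene's probes, outlier spots kept, a slide block, a replicate block, array weights, fits on the compared groups alone, an adjusted p under 0.1, a 2-fold minimum and omission of each kidney.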

Additional observations from a re-analysis of the deposited data

Results flagged for a closer look

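Of 40 combinations of a member and a group examined for a kidney far from the others, 5 stood out. Chance gives about 1 in 20 for a single combination. The members vary together in the same kidneys, so the 40 are not independent, and 3 of the 5 were severe replicate 5. In severe replicate 5, Atp6v0a4 was at 3.55 where the next severe kidney was at 4.66, Slc4a1 at 0.97 where the next was at 2.21, and Rhbg at 2.17 where the next was at 3.14. In the same severe group Car2 was at 5.60 in replicate 4 where the next was at 5.13. In mild replicate 1 Foxi1 was at 3.36 where the next was at 2.78.

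Atp6v1b1 was above the control mean in all 7 mild kidneys and below it in all 5 moderate kidneys. The difference between moderate and mild kidneys was -0.80 on the log2 scale, and limma gave it an adjusted p of 0.499.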

How the results depend on the processing

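Quantile normalization, normexp and the authors' table each called 1 member in mgb-/- against control kidneys (Car2), and array quality weights called 2 (Slc4a9 and Atp6v0d2). Over all genes the first 3 called 1394, 1422 and 1385 as higher and 1862, 2180 and 2051 as lower. In mild against control kidneys the count was 2 under quantile normalization, 3 under normexp, 3 in the authors' table, 2 with the filter on all 24 arrays, 1 with the mean of a gene's probes, 7 with array quality weights, 5 with only those 2 groups fitted and 3 at an adjusted p under 0.1. In moderate against control kidneys the count of members was 1 under quantile normalization, 1 under normexp and 3 with array quality weights. Over all genes quantile normalization called 169 higher and 221 lower there, and normexp 157 and 309. Array quality weights called 1 member in severe against control, 2 in severe against mild, 4 in moderate against mild and 2 in severe against moderate kidneys. Median scaling, no dim filter, outlier spots kept, the slide block and the replicate block left all 7 counts at 0. The 2-fold minimum only narrowed the calls of the main fit, so with 0 of these it could only give 0. Omission of each kidney in turn gave 0 to 1 members in mgb-/- against control, 0 to 3 in mild against control and 0 to 1 in severe against mild kidneys. Slc4a9 passed in mgb-/- against control kidneys without severe replicate 5 or 6, and 2 or more members passed in mild against control kidneys without mild replicate 4 or severe replicates 1, 4, 5 or 6.

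Replicate numbers did not pair the kidneys: deviations of same-numbered kidneys from their group means correlated from -0.55 to 0.65, with a median of 0.0047 over 33 pairs. With the replicate block Rhbg was -0.0092 in mgb-/- against control kidneys, and Atp6v1g3 -0.0094 and Slc26a4 -0.039 in moderate against control kidneys, each turned in sign. The replicate block moved no count of members. The slide block could not change the members' estimates in mgb-/- against control kidneys, because each slide held the same number of controls and of mgb-/- kidneys. The kidneys on slide 2 alone gave -0.032 for Atp6v1b1, -0.36 for Atp6v0a4, -0.17 for Slc4a1, -0.068 for Foxi1, -0.21 for Rhbg and -0.0028 for Atp6v1c2. Slide 1 alone gave -0.11 for Slc4a1 and -0.081 for Rhbg, and slide 3 alone 0.037 for Atp6v0a1.

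Other values near 0 also turned in sign. With median scaling Atp6v1b1 was -0.064, Atp6v0a4 -0.0040, Slc4a1 -0.077 and Rhbg -0.14 in mgb-/- against control, Atp6v1g3 -0.084 and Slc26a4 -0.11 in moderate against control, and Atp6v0d2 -0.053, Atp6v1g3 -0.018, Slc26a4 -0.054 and Foxi1 -0.087 in severe against control kidneys. In severe against control kidneys quantile normalization gave 0.15 for Atp6v0a4, 0.13 for Car2 and 0.13 for Rhbg, normexp 0.0056 for Atp6v1b1, 0.12 for Atp6v0a4, 0.15 for Car2 and 0.16 for Rhbg, and the authors' normalized values gave 0.0098, 0.12, 0.15 and 0.16 for the same 4. Array quality weights gave 0.047 for Atp6v1b1, 0.15 for Atp6v0a4 and 0.25 for Rhbg there, and -0.11 for Slc26a4 in moderate kidneys. Atp6v1g3 was -0.017 under normexp and -0.022 in the authors' table in moderate kidneys. Atp6v0a1 was 0.081 under quantile normalization, 0.088 under normexp and 0.088 in the authors' table in mgb-/- against control kidneys. Omission of each kidney gave ranges of -0.040 to 0.13 for Rhbg in mgb-/-, -0.022 to 0.15 for Atp6v1g3 and -0.13 to 0.14 for Slc26a4 in moderate, and -0.25 to 0.012 for Atp6v1b1, -0.18 to 0.16 for Atp6v0a4, -0.018 to 0.28 for Slc26a4 and -0.15 to 0.16 for Rhbg in severe against control kidneys.

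The list counts were also recomputed, in settings chosen after seeing the data. The V-ATPase count in mgb-/- against control kidneys was 7 with array quality weights, 0 at 2-fold and 1 to 2 with a kidney left out. In severe against control kidneys it was 3 under quantile normalization, 4 in the authors' table, 4 without a dim filter, 5 with the slide block, 4 with the replicate block, 2 with only 2 groups fitted and 1 at 2-fold. It ran from 2 to 10 with a kidney left out, and was 5 or fewer without any 1 control kidney, mild replicate 5 or 6, or severe replicate 1, 2 or 5. The count of other intercalated cell genes was 1 with median scaling, 1 with the replicate block, 14 with array quality weights, 1 at 2-fold and 0 to 6 with a kidney left out.

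For the subunit pairs in mild kidneys, the G3 pair missed the threshold under quantile normalization (0.47), normexp (0.40) and in the authors' table (0.43). With a kidney left out, the mild differences ran from 0.76 to 0.98 for the d2 pair, 0.56 to 0.74 for the G3 pair and 0.35 to 0.51 for the a4 pair. Over all mgb-/- kidneys the ranges were 0.56 to 0.90 for the B1 pair, 0.69 to 0.91 for the d2 pair and 0.38 to 0.52 for the G3 pair, and all 3 passed without severe replicate 4, as did the d2 and G3 pairs without moderate replicate 2 or 5 or severe replicate 6. The G3 pair in moderate kidneys was -0.0080 under normexp and -0.0070 in the authors' table. Other ranges with a kidney left out were -0.075 to 0.32 for the B1 pair and 0.39 to 0.78 for the d2 pair in moderate kidneys, and 0.52 to 1.66 for the B1 pair, 0.64 to 1.26 for the d2 pair, 0.35 to 0.73 for the G3 pair and -0.31 to 0.028 for the a4 pair in severe kidneys. The d2 pair passed in moderate kidneys without moderate replicate 2, and the B1, d2 and G3 pairs in severe kidneys without severe replicate 6. All 4 correlations kept their direction and their side of the threshold in the 3 alternatives run. The cause of these dependences was not tested.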
